A study of Mus musculus with 27 samples.

Results

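RNA was compared between ΔHD2/- and ΔHD2/fl mammary tumour cell lines that had received no cytokine. The comparison rests on 5 of the 27 libraries of the series, 2 of ΔHD2/fl (labelled dHD2_fl_no) and 3 of ΔHD2/- (labelled dHD2_rec_no), each from 1 cell line in growth medium for 4 days. All lines came from tumours of the thoracic mammary gland of 12-week-old female FVB/N mice with the MMTV-PyMT transgene, in which the MMTV promoter drives the polyoma middle T oncogene in mammary epithelium. ΔHD2/fl cells carried a Bcl9 and Bcl9L allele without the HD2 domain and a floxed wild-type allele. In ΔHD2/- cells the floxed allele had been removed by an adenovirus that expressed Cre and GFP, followed by sorting for GFP, so the mutant allele was present in both groups and the wild-type allele only in ΔHD2/fl. A virus with GFP alone served as a control, but whether the sequenced ΔHD2/fl cells had received it is not given in the sources used here. Infection and sorting therefore cannot be told apart from the loss of the allele. The table listed 24454 genes, of which 13270 reached at least 1 CPM (reads of a gene per 1000000 reads assigned to genes) in at least 2 of the 27 libraries and were tested. The 5 libraries held 22.21 to 27.01 M reads (M, 1000000). A count of 0 allows up to 3 reads, which were worth 0.111 to 0.135 CPM. This limit covers counting error only. The labels name lines from 2 mice per genotype, and therefore at least 2 of the 3 ΔHD2/- lines shared a mouse. Whether lines 2 and 3 are separate lines is not given.

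Bcl9 and its paralogue Bcl9L are scaffold proteins of the canonical Wnt pathway. When a Wnt ligand stabilises β-catenin, β-catenin enters the nucleus and binds TCF/LEF factors on DNA, and Bcl9 and Bcl9L attach through HD2 to β-catenin and through HD1 to Pygopus. In the mammary gland, Wnt signals act on the basal layer, whose myoepithelial and progenitor cells express keratins 5 and 14, while luminal cells express keratins 8 and 18. The comparison addresses what the lines expressed at rest once the only HD2-competent alleles were gone.

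Both targeted genes were still transcribed in ΔHD2/- cells. Bcl9 lay at 35.3 and 55.2 CPM in ΔHD2/fl and at 43.8, 54.1 and 52.8 CPM in ΔHD2/-, so the groups overlapped. Bcl9l lay at 209 and 255 CPM in ΔHD2/fl and at 181, 149 and 138 CPM in ΔHD2/-, with no overlap. Its log2 fold change of -0.57 ± 0.41 (SE) did not pass the test (limma adjusted p = 0.739). Gene totals do not show which allele a read came from, and the deletion of HD2 itself could not be checked in them.

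The 3 ΔHD2/- lines were not equally distant from ΔHD2/fl. Lines 2 and 3 were nearly identical to each other, and 97.6% of the genes tested lay within 2-fold between them on the log2(CPM + 1) scale. They differed by at least 4-fold in 1 gene. With both averaged as 1 line, leaving 2 against 2, 28 of the 73 calls described below were kept. Between line 1 and either of these 2 lines, 982 and 951 genes differed by at least 4-fold. Line 1 differed by that much from ΔHD2/fl lines 1 and 2 in 412 and 465 genes, whereas the 2 ΔHD2/fl lines differed from each other in 342. Line 1 was thus closer to the ΔHD2/fl lines than to the lines of its own genotype. Where 3 ΔHD2/- values are given, line 1 therefore comes first.

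Counted against the ΔHD2/fl mean, line 1 was at least 2-fold away in 1252 of the tested genes (474 higher, 778 lower). The mean of lines 2 and 3 was that far away in 2556 (773 higher, 1783 lower). Both were at least 2-fold lower in 494 genes and at least 2-fold higher in 55. They moved to opposite sides in 282 genes, 195 of them higher in line 1 and lower in lines 2 and 3, and 87 the other way round.

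**Figure D1:**
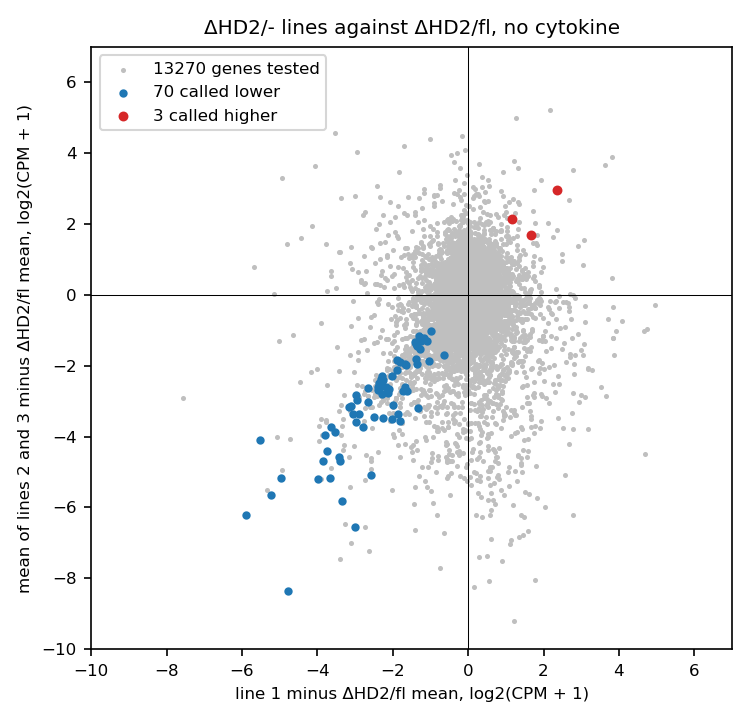
Difference of line 1 of ΔHD2/- from the ΔHD2/fl mean (x axis) against that of the mean of lines 2 and 3 (y axis), both as log2(CPM + 1), for the 13270 genes tested. Each point is a gene; the 70 called lower (blue) and 3 called higher (red) lie in the lower left and upper right, and grey points lie on all sides of both zero lines.

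The labelled epithelial identity was seen in all 5 libraries for the defining genes Cdh1 (E-cadherin, 682 to 1145 CPM), Epcam (397 to 910 CPM) and Krt8 (601 to 1509 CPM). Other epithelial genes were absent from lines 2 and 3. Cldn3 and Cldn7, claudins of tight junctions, had no read in either of them, which allows up to 0.135 CPM, against 157, 74.9 and 299 CPM of Cldn3 in ΔHD2/fl lines 1 and 2 and ΔHD2/- line 1. Of the 13 leukocyte markers listed, 8 to 13 had no read in a library and their summed level was at most 3.1 CPM. The summed level of 8 endothelial markers was 0.393 to 3.01 CPM. The 13 fibroblast markers summed to 508 and 215 CPM in ΔHD2/fl and to 27.8, 23.8 and 4.48 CPM in ΔHD2/-. Postn (periostin, a matrix protein) made up most of this in every library but ΔHD2/- line 1, at 460 and 209 CPM against 9.26, 22.4 and 3.43 CPM. Of these 13 markers, 4 and 5 had no read in the ΔHD2/fl libraries, and 8, 9 and 10 had none in the ΔHD2/- libraries. Lum, Fap and Dpt had no read in any of the 5 libraries. Pdgfra, the larger share in line 1, lay at 13.1 and 1.59 against 15.4, 0 and 0 CPM.

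The test, a limma fit of all 27 libraries, called far more genes lower than higher in ΔHD2/-. Unless another method is named, the calls and adjusted p values below come from this fit. At an adjusted p of at most 0.05 and at least a 2-fold change, 70 genes were lower (0.528% of those tested) and 3 were higher (0.0226%). In all 73, every ΔHD2/- library lay on the same side of both ΔHD2/fl libraries, line 1 included. Over all genes tested, 14.9% lay wholly below and 12.4% wholly above without regard to the test. Among the 70, line 1 lay nearer to ΔHD2/fl than lines 2 and 3 did in 60, and the median difference from ΔHD2/fl was -2.30 in line 1 and -2.74 in lines 2 and 3 (log2). Line 1 was at least 2-fold below in 68 of the 70 and at least 4-fold below in 44. In bulk RNA, fewer cells that express a gene and less RNA per cell cannot be told apart.

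How many genes were called depended on what the spread was estimated from. The 73 calls draw on all 27 libraries, in which each line appears under 3 treatments, so that residuals of 1 line are not independent. With the 9 untreated libraries alone, 1 gene was called (Krt16) and 843 had an unadjusted p of at most 0.05. With the 5 compared libraries alone, none was called and 1067 had such a p. On the recovered reads, edgeR's quasi-likelihood test called 8 genes, all lower, among them Eda2r, Kif26b, Vsnl1, Nid1, Sorcs2, Dpysl5 and Gja1. DESeq2 called 133 (28 higher, 105 lower). Without line 1 the limma count was 749 (247 higher, 502 lower), without line 2 it was 28 and without line 3 it was 26.

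Some of the largest changes did not keep their call when the repeated use of a line was modelled. With cell line as a random effect (correlation estimated), 56 of the 73 genes were still called. Of the 40 called genes named here, 8 were then lost, namely Krt6a, Krt16, Krt42, Igfbp3, Kif26b, Col2a1, Aldh3a1 and Insig1. With lines 2 and 3 averaged, 20 of the 40 were lost, these 8 included. Genes kept under both were Krt75, Sostdc1, Gja1, Vsnl1, Fat2, Ptpru, Cdh15, Gli2, Nid1, Pak6, Sorcs2, Trp73, Prom1, Il17b and Wfdc12, among others. Of these, Gja1, Vsnl1, Nid1 and Sorcs2 were also called by both edgeR and DESeq2. Krt75, Sostdc1, Cdh15, Gli2, Pak6 and Trp73 were called by neither (adjusted p 0.334 to 0.475 with edgeR and 0.0754 to 0.703 with DESeq2).

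Most of the genes called lower were modest in level in ΔHD2/fl and at or near 0 in lines 2 and 3. Their ΔHD2/fl mean ranged from 1.09 to 841 CPM with a median of 7.71 CPM, and 41 of the 70 had a mean below 10 CPM. Lines 2 and 3 both had at most 3 reads in 44 of them, and all 3 lines had at most 3 reads in 13. In 4 genes no read was found in any ΔHD2/- library. These were Gria3 (a glutamate receptor subunit), Grip1 (a scaffold of such receptors), Il1rl2 (the receptor of interleukin-36) and Cyp2j9 (a cytochrome P450). Gria3 lay at 13.9 and 4.44 CPM in ΔHD2/fl. Set against 3 reads over the 3 libraries together (0.0435 CPM), Gria3, Grip1, Il1rl2 and Cyp2j9 were at least 211-fold, 88.5-fold, 36.8-fold and 32.3-fold lower than the ΔHD2/fl mean. Against the lower ΔHD2/fl line the bound of Gria3 was 102-fold.

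**Figure D2:**
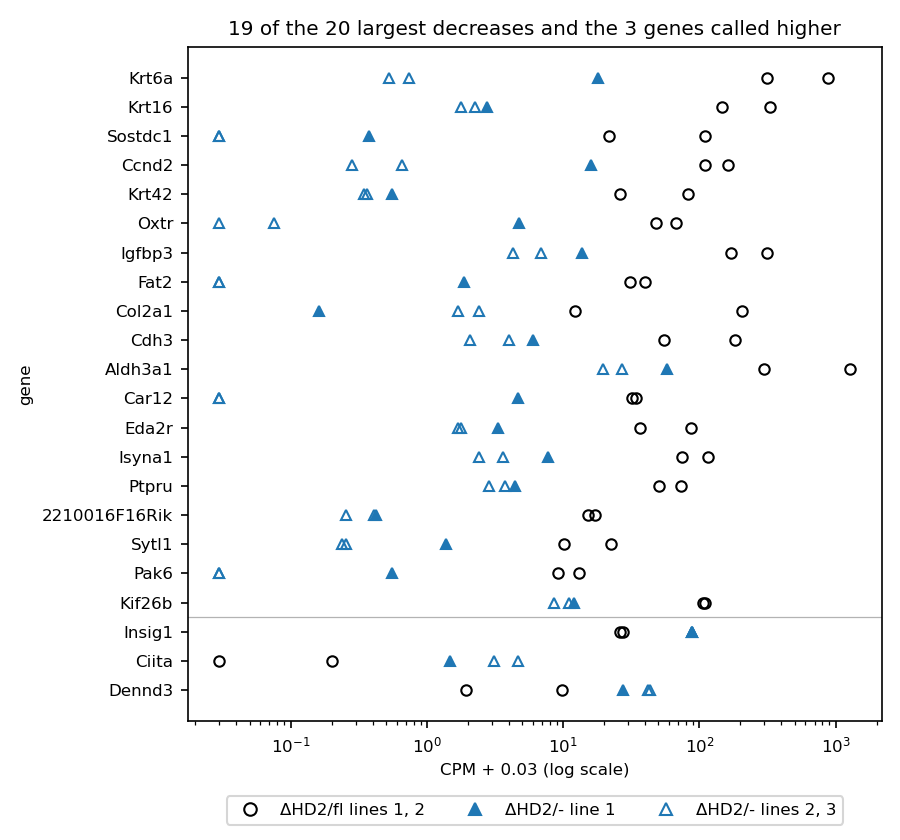
CPM (log axis, values drawn at CPM + 0.03) in the 2 ΔHD2/fl libraries (circles) and the 3 ΔHD2/- libraries (triangles, line 1 filled) for 19 of the 20 genes of largest decrease on the log2(CPM + 1) scale and the 3 called higher. In each row the triangles lie all to one side of the circles, and line 1 sits between the circles and the other triangles in most rows.

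Of the 12 listed keratins of the basal layer and of activated skin, all tested, 11 lay below ΔHD2/fl in all 3 lines and 3 were called, Krt6a, Krt16 and Krt75. Among all genes tested, 14.9% lay below and 0.528% were called lower. The list's median log2 fold change was -3.15 (-2.94 in line 1 and -3.28 in lines 2 and 3), against -0.03 over all genes tested. Krt6a and Krt16, induced together in wounded epidermis, had log2 fold changes of -7.16 ± 1.29 (SE, adjusted p = 0.00972) and -6.10 ± 1.12 (adjusted p = 0.0104), the largest decreases among called genes on the log2(CPM + 1) scale. With a pseudocount of 0.1 the order changed, Sostdc1 (-8.21) passing Krt6a (-7.99). Their adjusted p values were 0.121 and 0.136 with cell line as a random effect, and 0.151 and 0.116 with lines 2 and 3 averaged. Krt6a went from 312 and 873 CPM to 18, 0.495 and 0.712 CPM. Krt16 went from 146 and 332 CPM to 2.75, 1.76 and 2.22 CPM, and here line 1 was as low as the other 2 lines. Krt75, a keratin of the companion layer of the hair follicle, lay at 5.73 and 8.51 CPM in ΔHD2/fl. In ΔHD2/- it was nearly absent, at 0.0437, 0.045 and 0 CPM (log2 fold change -2.96 ± 0.33, adjusted p = 1.4e-04).

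None of the classical basal keratins passed the test. Krt14 lay at 6788 and 8746 CPM in ΔHD2/fl and at 1000, 1453 and 1207 CPM in ΔHD2/- (adjusted p = 0.63, and 0.102 with the 5 compared libraries alone), so that the groups stood apart. Krt5, its partner, lay at 559 and 6826 CPM against 73.2, 123 and 107 CPM (adjusted p = 0.556), so that the ΔHD2/fl lines themselves stood far apart. Krt15, a keratin of epithelial progenitors, lay at 24.9 and 29.9 CPM against 18.1, 0.135 and 0 CPM, so that line 1 was near ΔHD2/fl. Krt17 was the 1 member that overlapped, at 18 and 1361 CPM against 25.1, 0.045 and 0.0837 CPM. Keratin genes have close copies, and only uniquely aligned reads were counted.

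Called keratins sat in the keratin gene clusters, and 2 more called genes lay in them. On chromosome 11 of GRCm38 (mm10), Krt32 (a hair keratin, start 100080848, at 3.32 and 1.85 CPM against 0.349, 0 and 0 CPM), Krt16 (start 100246091) and Krt42 (start 100262882) were called. Krt42 fell from 83.1 and 26.2 CPM to 0.524, 0.315 and 0.335 CPM (log2 fold change -5.11 ± 0.98, adjusted p = 0.0166). On chromosome 15, Krt75 and Krt6a start 126.6 kb apart. The called genes lay on 19 chromosomes.

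Basal and myoepithelial markers formed a list that shares Krt5, Krt14 and Krt17 with the keratins. Of 13 tested markers, 7 lay below ΔHD2/fl in all 3 lines, none lay above, 6 overlapped and 2 were called, with a list median of -2.67. Among all genes tested, 14.9% lay below, 12.4% lay above and 0.528% were called lower. Oxtr, the oxytocin receptor through which myoepithelial cells contract, lay at 67.3 and 48 CPM in ΔHD2/fl. It was 4.72, 0.045 and 0 CPM in ΔHD2/- (log2 fold change -4.99 ± 0.87, adjusted p = 0.00725). Cdh3, P-cadherin, the cadherin of the basal layer, fell from 54.8 and 183 CPM to 5.98, 3.96 and 2.05 CPM (-4.42 ± 0.72, adjusted p = 0.00381). Acta2, smooth muscle actin, was at 9.65 and 7.66 CPM against 0.0873, 0 and 0 CPM and did not pass (adjusted p = 0.605). DESeq2 called Acta2 (adjusted p = 0.00193), and edgeR did not (adjusted p = 0.334). Trp63, the p63 factor that specifies basal cells, separated the ΔHD2/- lines. It lay at 46.8 CPM in line 1, between the ΔHD2/fl values of 30.9 and 82.8 CPM, and at 0.721 and 0.209 CPM in lines 2 and 3 (adjusted p = 0.608).

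**Figure D3:**
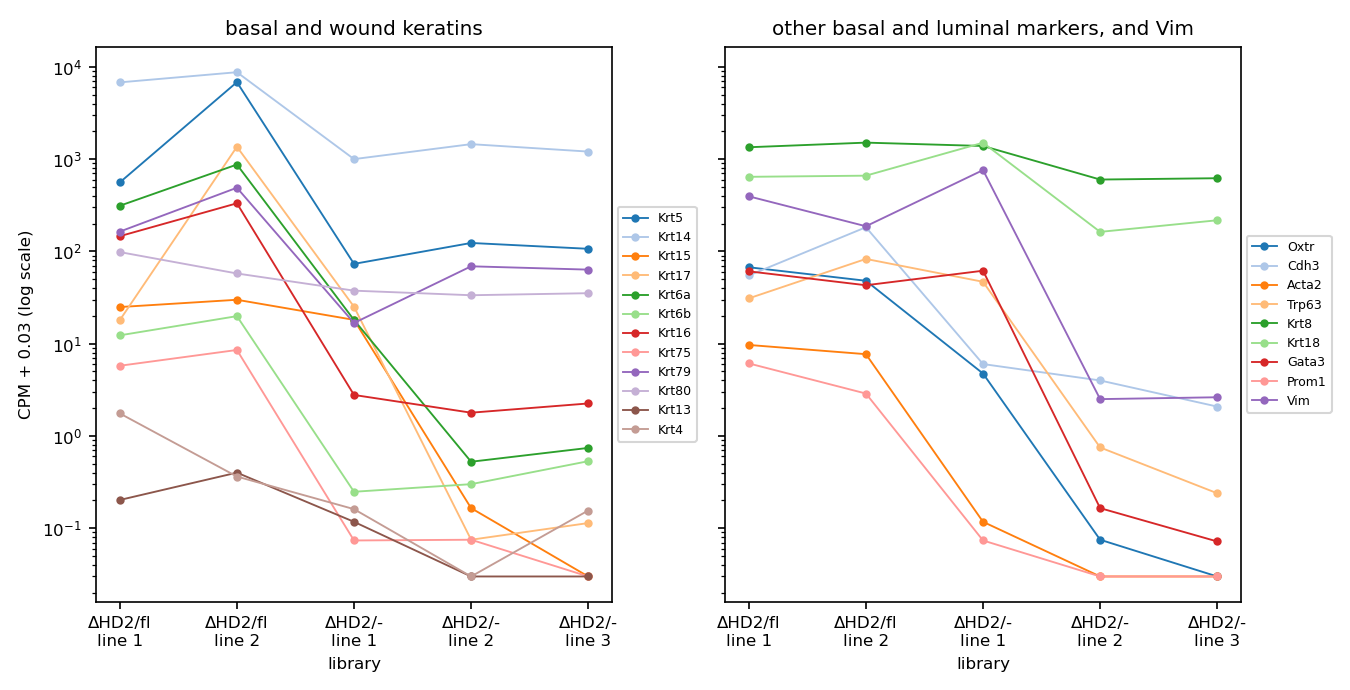
CPM (log axis, values drawn at CPM + 0.03) of the 12 basal and wound keratins (left) and of other basal and luminal markers (right) in each of the 5 untreated libraries, joined per gene. Krt6a and Krt16 drop in all 3 ΔHD2/- lines, while Trp63, Gata3 and Vim are low in lines 2 and 3 alone, Vim lying above both ΔHD2/fl lines in line 1.

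The limma fit of all 27 libraries called no gene in the lists of cornified envelope, serpin and plasminogen, and desmosome genes. In the list of cornified envelope genes, which build the outer barrier of the epidermis, 25 of 42 tested members lay below in all 3 lines, none above, beside 14.9% below among all genes tested, and the median was -0.95 (-0.59 in line 1). Sprr1a, a precursor of that envelope, was at 17 and 28.3 CPM against 1.22, 1.22 and 2.18 CPM (adjusted p = 0.659). Casp14, the caspase of cornification, was at 3.15 and 3.63 CPM against 0.131, 0 and 0 CPM, with the list's smallest adjusted p of 0.0768. DESeq2 called Casp14 (log2 fold change -6.30, adjusted p = 0.0217), and edgeR did not (adjusted p = 0.41). Among clade B serpins and plasminogen genes, 8 of 15 lay below and none above. Serpinb2, an inhibitor of plasminogen activators, was at 105 and 72.9 CPM against 8.17, 0 and 0 CPM (adjusted p = 0.113). Among desmosome genes, 5 of 13 lay below and none above, with Perp, a p53-regulated desmosome protein, at 1057 and 1059 CPM against 497, 405 and 445 CPM (adjusted p = 0.439).

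Sostdc1, a secreted antagonist of BMP and Wnt signals, lay at 21.9 and 109 CPM in ΔHD2/fl and at 0.349, 0 and 0 CPM in ΔHD2/- (log2 fold change -5.51 ± 0.84, adjusted p = 0.00227). Eda2r, a receptor of ectodysplasin and a p53 target, fell from 87.3 and 36.8 CPM to 3.28, 1.67 and 1.76 CPM (-4.19 ± 0.68, adjusted p = 0.00381). Igfbp3, which binds insulin-like growth factors, fell from 315 and 171 CPM to 13.6, 6.8 and 4.27 CPM (-4.79 ± 0.97, adjusted p = 0.0266). In each of these genes the ΔHD2/- values lay more than 10-fold below the lower ΔHD2/fl value.

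Gli2, a transcription factor of Hedgehog signalling, was called at 3.71 and 7.74 CPM against 0.218, 0 and 0 CPM (-2.59 ± 0.36, adjusted p = 9.5e-04). In the Notch list the limma fit of all 27 libraries called no gene, and 2 of 13 tested lay below, close to the 14.9% among all genes tested. Jag1, a Notch ligand of basal cells, lay at 129 and 243 CPM against 32.2, 24.6 and 22.2 CPM, and its adjusted p was 0.0515. Jag2, another ligand, lay at 83.5 and 178 CPM against 19.8, 3.15 and 3.01 CPM (adjusted p = 0.188). In both ligands line 1 also lay below ΔHD2/fl, but neither passed the test in that fit. Jag1 was called with cell line as a random effect (adjusted p = 0.0352) and by DESeq2 (adjusted p = 0.0034). It was not called by edgeR (adjusted p = 0.266) or with lines 2 and 3 averaged (adjusted p = 0.327).

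Gja1, connexin 43 of gap junctions, lay at 909 and 773 CPM in ΔHD2/fl and at 240, 241 and 207 CPM in ΔHD2/-, so that line 1 equalled the other lines (-1.87 ± 0.26, adjusted p = 9.1e-04, edgeR adjusted p = 0.0364). Ptpru, a receptor tyrosine phosphatase of cell contacts, was also low in line 1, at 50.8 and 73.3 CPM against 4.41, 3.74 and 2.8 CPM (-3.75 ± 0.47, adjusted p = 3.8e-04). Fat2, an atypical cadherin, lay at 30.8 and 40.1 CPM against 1.83, 0 and 0 CPM (-4.68 ± 0.59, adjusted p = 3.8e-04). Cdh15, M-cadherin, lay at 9.53 and 9.03 CPM against 0.393, 0 and 0 CPM (-3.20 ± 0.41, adjusted p = 4.1e-04). Unlike Gja1, the genes Ptpru, Fat2 and Cdh15 were not called by edgeR (adjusted p = 0.438, 0.461 and 0.461). Of 17 hemidesmosome and basement membrane genes, 1 was called, 4 lay below and 1 above, beside 14.9% below and 12.4% above among all genes tested. The called one was Nid1, the linker nidogen 1, at 9.48 and 2.78 CPM against 0, 0.045 and 0 CPM (-2.63 ± 0.41, adjusted p = 0.00256). Col2a1, a fibrillar collagen chain of cartilage, rested mainly on ΔHD2/fl line 2, with 12.1 and 205 CPM against 0.131, 2.39 and 1.67 CPM (-4.58 ± 0.97, adjusted p = 0.0373).

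In the cell cycle and p53 lists, 3 genes were called, all lower. Over all genes tested, 0.528% were called lower, 14.9% lay below ΔHD2/fl in all 3 lines and 12.4% above. Ccnd2, the D-type cyclin 2, fell from 163 and 110 CPM to 15.9, 0.63 and 0.251 CPM (-5.37 ± 0.94, adjusted p = 0.00725). Ccnd1, a D-type cyclin and Wnt target, did not follow it, at 902 and 816 CPM against 1458, 529 and 574 CPM (adjusted p = 0.978), with line 1 above and lines 2 and 3 below. In the list of cell cycle inhibitors and p53 targets, 9 of 25 lay below ΔHD2/fl and none above, Eda2r and Trp73 (p73) being the called ones. Pmaip1, a pro-apoptotic p53 target, lay at 57.3 and 21.8 CPM against 1.44, 0 and 0 CPM (adjusted p = 0.147). Cdkn2a, an inhibitor of cell division, overlapped at 31.8 and 25 CPM against 12.9, 24.8 and 26.1 CPM. Of 30 proliferation genes 1 lay below and none above, and their median was 0.11 in line 1 and -1.10 in lines 2 and 3.

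Aldh3a1, an aldehyde dehydrogenase, fell from 1283 and 295 CPM to 57.6, 26.8 and 19.6 CPM (-4.26 ± 0.87, adjusted p = 0.0279). It was the 1 call among 28 tested genes of detoxification, of which 14 lay below and 2 above (0.528% of all genes tested were called lower, 14.9% lay below and 12.4% above). Cyp1a1, a cytochrome P450 induced through the aryl hydrocarbon receptor, lay at 6.68 and 1.15 CPM against 0.0437, 0 and 0 CPM (adjusted p = 0.169), and Ahr, that receptor, at 35.8 and 24.4 CPM against 15.5, 16.3 and 15.6 CPM (adjusted p = 0.523). Car12, a carbonic anhydrase of the cell surface, was called at 34.4 and 31.9 CPM against 4.67, 0 and 0 CPM (-4.26 ± 0.68, adjusted p = 0.00371). It belongs to the hypoxia and glycolysis list, in which 3 of the other 20 tested genes lay below, 5 above and none was called.

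The remaining called members of the lists were few. Prom1 (CD133), listed as a luminal marker, lay at 6.08 and 2.85 CPM against 0.0437, 0 and 0 CPM (-2.36 ± 0.25, adjusted p = 1.1e-04). Il17b, an interleukin-17 family cytokine, lay at 5.82 and 6.63 CPM against 0.48, 0.0901 and 0 CPM (-2.62 ± 0.35, adjusted p = 7.5e-04). In its list of cytokines and chemokines 10 of 38 lay below and 4 above. Wfdc12, an antiprotease of the defence list, lay at 2.28 and 1.55 CPM against 0.131, 0.0901 and 0.0419 CPM (-1.41 ± 0.17, adjusted p = 3.6e-04). In that list of 15, 2 lay below and 2 above. The shares over all genes tested were 14.9% below, 12.4% above and 0.528% called lower.

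Only 3 genes were called higher in ΔHD2/-, and they have unlike functions. Insig1 holds the sterol sensor of the SREBP pathway in the endoplasmic reticulum. It lay at 26.2 and 27.4 CPM in ΔHD2/fl and at 87.9, 88.5 and 88.6 CPM in ΔHD2/-, so that each group was tight and line 1 equalled the others (1.68 ± 0.32, adjusted p = 0.0145). Ciita, the transactivator of MHC class II genes, had a log2 fold change of 1.82 ± 0.32 (adjusted p = 0.00725), at 0.172 and 0 CPM against 1.44, 4.64 and 3.1 CPM. Of the 44 genes tested in the MHC and interferon list it was the 1 call, while 4 lay above and 10 below. Among all genes tested, 0.0226% were called higher, 12.4% lay above and 14.9% below. Dennd3, an exchange factor for a Rab GTPase, rose from 1.9 and 9.77 CPM to 27.7, 43.3 and 42.1 CPM (2.77 ± 0.55, adjusted p = 0.0208). Insig1 was called in 7, Dennd3 in 9 and Ciita in 5 of the alternative analyses, and edgeR gave adjusted p values of 0.16, 0.334 and 0.528.

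Some genes lay higher in all 3 lines without passing. Lcn2, lipocalin 2, an iron-binding defence protein, was at 16.5 and 17.3 CPM against 252, 213 and 332 CPM (3.87 ± 1.32, adjusted p = 0.364). Complement C3 was at 20.9 and 22.6 CPM against 51.9, 299 and 330 CPM (adjusted p = 0.621). Vegfa, the angiogenic growth factor, was at 38.4 and 65.7 CPM against 96.5, 540 and 604 CPM (adjusted p = 0.2). Line 1 lay at the level of the others in Lcn2 and well under them in the other two.

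Wnt target genes gave no call in the limma fit of all 27 libraries. Of 23 tested, 5 lay below ΔHD2/fl in all 3 lines and 1 above, beside 14.9% and 12.4% among all genes tested, and the median was -0.44. Axin2, the feedback inhibitor that most tissues use as a Wnt readout, lay at 2.97 and 2.7 CPM against 0.131, 0.675 and 0.544 CPM (adjusted p = 0.137), lowest in line 1. Lgr5, the R-spondin receptor, was at 4.96 and 0.222 CPM against 0.0437, 0 and 0 CPM (adjusted p = 0.71). Myc lay at 258 and 211 CPM against 145, 181 and 193 CPM (adjusted p = 0.788). Notum, a secreted Wnt deacylase, overlapped at 28.5 and 10.3 CPM against 13.5, 36.4 and 35.8 CPM. Lef1, a TCF/LEF factor, was at or below 0.345 CPM in ΔHD2/fl and line 1 and at 19.1 and 18.5 CPM in lines 2 and 3 (adjusted p = 0.54).

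Among Wnt ligands and receptors, 8 of 28 lay below, 2 above and none was called (14.9% and 12.4% of all genes tested lay so). Wnt4, a mammary ligand downstream of progesterone, was at 11 and 14.3 CPM against 0.349, 0.225 and 0.167 CPM (-3.44 ± 0.89, adjusted p = 0.132). Wnt10a was at 24.6 and 45 CPM against 14.3, 4.14 and 4.14 CPM (adjusted p = 0.675). In the list of Bcl9, Pygopus, β-catenin and TCF/LEF genes, 3 of 20 lay below, close to the 14.9% among all genes tested, and 1 above. Ctnnb1, β-catenin itself, lay at 1142 and 2406 CPM against 1120, 5094 and 5406 CPM (adjusted p = 0.765), with line 1 at the level of ΔHD2/fl. No member of either Wnt list passed the test in the limma fit of all 27 libraries.

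In several lists the median of line 1 lay far from that of lines 2 and 3. In the mesenchymal list of 42, 1 gene was called (Cdh3), 12 lay below and 1 above, and the median was -0.15 in line 1 and -1.15 in lines 2 and 3. Over all genes tested, 0.528% were called lower, 14.9% lay below and 12.4% above. Vim, vimentin, lay at 395 and 187 CPM in ΔHD2/fl, at 761 CPM in line 1 and, in lines 2 and 3, at 2.48 and 2.6 CPM. Tnc, tenascin C, gave 710 and 635 CPM in ΔHD2/fl, 1575 CPM in line 1, and 0.135 and 0.126 CPM in the others. Fn1, fibronectin, overlapped at 7067 and 3370 CPM against 4149, 8664 and 7273 CPM, as did Cdh2, N-cadherin, at 139 and 147 CPM against 154, 137 and 127 CPM. Luminal markers had a median of 0.76 in line 1 and -1.83 in lines 2 and 3. Gata3, the luminal transcription factor, was at 60.8 and 42.9 CPM in ΔHD2/fl, at 61.7 CPM in line 1 and, in lines 2 and 3, at 0.135 and 0.0419 CPM. The simple epithelial list had a median of 0.00 in line 1 and -1.20 in lines 2 and 3, with 1 of 28 members at least 2-fold lower and 6 at least 2-fold higher in line 1, and 15 lower and 1 higher in lines 2 and 3. None of these differences between lines has a test, because line 1 has no replicate of its own.

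**Figure D4:**
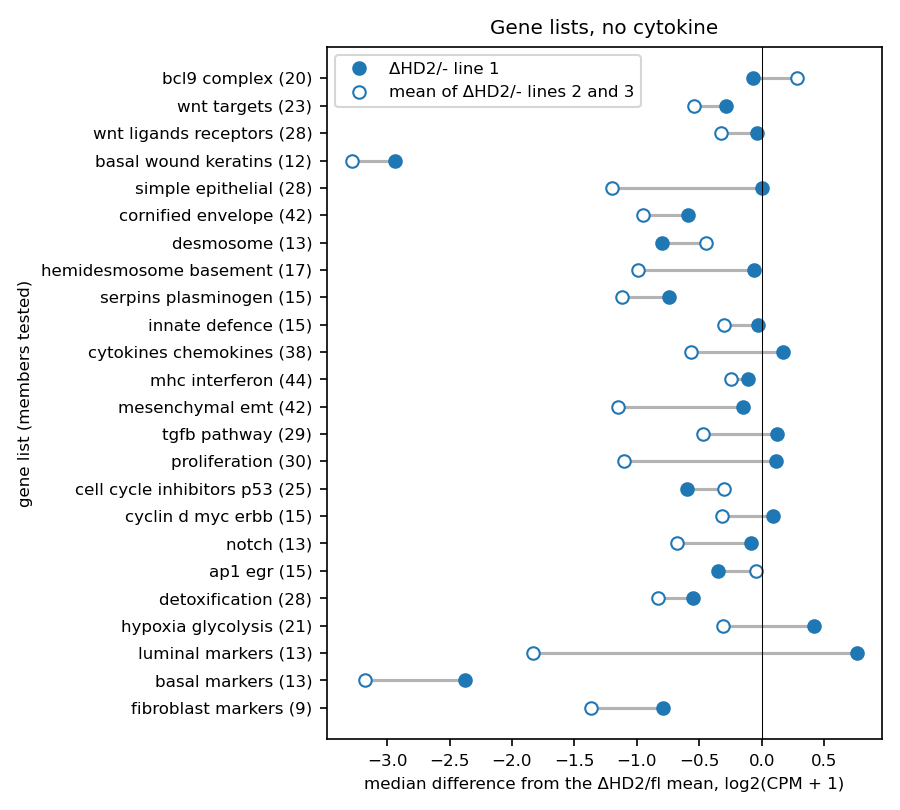
Median log2(CPM + 1) difference from the ΔHD2/fl mean for the tested members of each gene list in line 1 of ΔHD2/- (filled circles) and in the mean of lines 2 and 3 (open circles). Both points lie far left for the basal and wound keratins (-2.94 and -3.28) and the basal markers (-2.38 and -3.18), and they lie far apart for the luminal markers (0.76 and -1.83).

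In the remaining lists no gene was called. In the TGFβ pathway list 6 of 29 lay below and 1 above (median 0.12 in line 1 and -0.47 in lines 2 and 3), Bmp7, a BMP ligand, coming closest at 7.33 and 66 CPM against 1.35, 0.0901 and 0.167 CPM (-4.03 ± 0.92, adjusted p = 0.0648). In the list of AP-1 and Egr immediate early genes 3 of 15 lay below and 1 above (median -0.35 in line 1 and -0.05 in lines 2 and 3). In the simple epithelial list 6 of 28 lay below and 1 above. These counts stand beside the 14.9% below and 12.4% above among all genes tested.

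Promoter sequence was examined for the called genes because all but 3 moved the same way. RefSeq promoters (GRCm38.p6, 250 bases before to 50 after a gene start) were matched for 54 of the 73 called genes in 65 windows. TCF/LEF motifs, searched as CTTTGAA or CTTTGAT on either strand, occurred in 4 windows (6.15%), against 5.93% of windows of the genes tested and 8.65% of all 32851 windows. AP-1 motifs, TGACTCA or TGAGTCA, whose letters do not overlap the former, occurred in 4 windows (6.15%), against 4.1% and 5.2%. The TCF/LEF matches were in Bcl11b, Kif26b, Krt32 and Vsnl1, and the AP-1 matches in Gja1, Pak6, Prom1 and Snx10. A match is a description of letters and not a bound site. Kif26b (a kinesin) and Vsnl1 (a calcium sensor) for TCF/LEF and Gja1 for AP-1 are shown because edgeR also called them, with the match in capitals, 5′ to 3′ on the strand of the gene.
Vsnl1, chr12:11435602-11435901, minus strand, match starting 62 bases before the start: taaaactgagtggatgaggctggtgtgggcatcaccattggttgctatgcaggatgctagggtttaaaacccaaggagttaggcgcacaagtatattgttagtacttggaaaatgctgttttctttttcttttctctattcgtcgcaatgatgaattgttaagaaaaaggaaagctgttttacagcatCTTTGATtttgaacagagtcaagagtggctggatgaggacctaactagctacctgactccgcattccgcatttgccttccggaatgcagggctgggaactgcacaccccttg
Kif26b, chr1:178528875-178529174, plus strand, match starting 10 bases before the start: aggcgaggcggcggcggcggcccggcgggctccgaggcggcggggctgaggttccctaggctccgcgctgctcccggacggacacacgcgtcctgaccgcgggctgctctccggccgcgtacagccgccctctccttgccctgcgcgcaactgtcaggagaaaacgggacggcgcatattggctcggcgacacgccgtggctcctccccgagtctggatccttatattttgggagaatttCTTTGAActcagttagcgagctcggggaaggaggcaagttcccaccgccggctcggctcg
Gja1, chr10:56377050-56377349, plus strand, match starting 19 bases before the start: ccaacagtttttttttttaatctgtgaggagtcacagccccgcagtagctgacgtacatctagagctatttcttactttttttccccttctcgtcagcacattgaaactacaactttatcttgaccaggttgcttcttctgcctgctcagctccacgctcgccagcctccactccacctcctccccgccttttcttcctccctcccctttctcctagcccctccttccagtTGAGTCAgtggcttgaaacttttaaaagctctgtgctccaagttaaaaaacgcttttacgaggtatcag
Vsnl1 lay at 11 and 13.5 CPM against 1.35, 0.18 and 0.251 CPM (-3.13 ± 0.34, adjusted p = 1.4e-04). Kif26b lay at 106 and 110 CPM against 12.1, 10.9 and 8.58 CPM (-3.26 ± 0.61, adjusted p = 0.0123). In all 3 genes line 1 lay far below both ΔHD2/fl lines.

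The same 5 lines were also measured with Wnt3a (3 days) and with TGFβ (4 days). This repeats the measurement but adds no line. The untreated cells were kept for 4 days, so the Wnt3a libraries differ from them in time as well as in cytokine. With Wnt3a, 0.641% of the genes tested were called lower and 0.0452% higher. Of the 70 genes called lower without cytokine, 40 were called lower with Wnt3a, 67 lay wholly below (15.6% of all genes tested did) and the median difference was -2.09, against -2.58 without cytokine. With TGFβ, 0.294% were called lower and 0.0603% higher. Of the 70, 16 were then called lower, 55 lay wholly below (13.6% of all genes tested did) and the median was -1.22. Under all 3 conditions 14 genes were called lower. Prom1 was among them, at -2.36, -2.21 and -2.64 (untreated, Wnt3a and TGFβ, log2 fold change), as were Eda2r, at -4.19, -4.46 and -4.12, and Pak6, a p21-activated kinase, at -3.37, -3.70 and -3.76. Insig1 was called higher under all 3, at 1.68, 1.95 and 2.38.

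The genotype difference changed with TGFβ in 3 of the 73 genes by the test of that change (adjusted p of at most 0.05), and in none with Wnt3a. Over all genes tested it did so in 0.0301% (4 genes) with TGFβ and 0.0151% (2 genes) with Wnt3a. For Wnt3a the test sets 3 days against 4 days, so time and cytokine cannot be told apart in it. The 73 were selected for a large difference without cytokine, which favours a smaller one in another medium. At an unadjusted p of at most 0.05 the numbers among the 73 were 33 and 20. The 3 were Cdh15, whose difference went from -3.20 to 1.16 (change 4.37, adjusted p = 0.00468), Krt75, from -2.96 to -0.03 (change 2.93, adjusted p = 0.0307), and Krt32, from -1.67 to 0.00 (change 1.67, adjusted p = 0.0333). In Gja1, which went from -1.87 to -1.23 with Wnt3a and 0.14 with TGFβ, the change was not called.

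**Figure D5:**
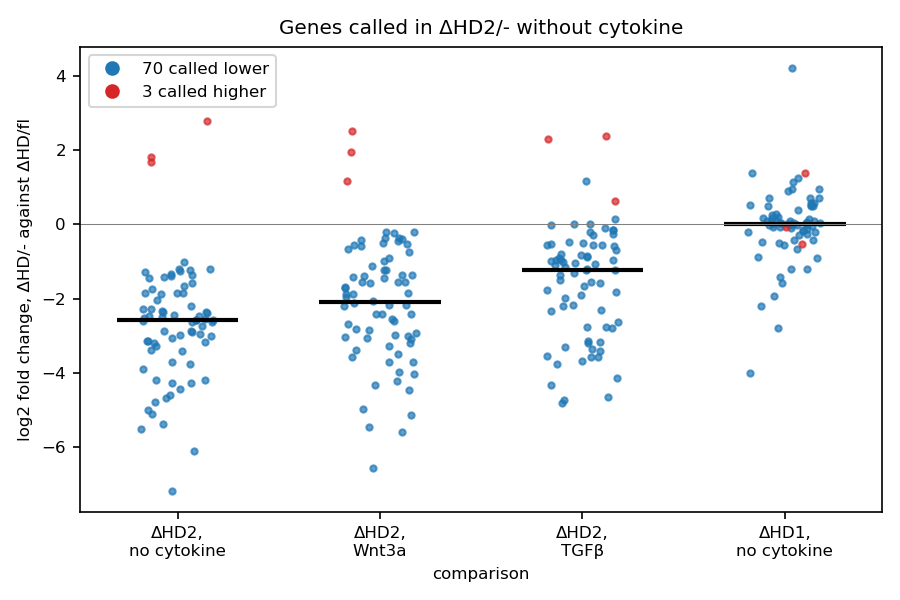
Log2 fold change of ΔHD2/- against ΔHD2/fl for the 73 called genes without cytokine, with Wnt3a, with TGFβ, and of ΔHD1/- against ΔHD1/fl without cytokine. Each dot is a gene and the bar is the median of the 70 called lower, which is -2.58, -2.09, -1.22 and 0.02 from left to right.

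The ΔHD1 lines, in which HD1 in place of HD2 was missing from the retained allele, share no library with this comparison. In ΔHD1/- against ΔHD1/fl without cytokine (2 lines each), the 70 genes had a median log2 fold change of 0.02. Of them 8 were at least 2-fold lower and 4 at least 2-fold higher, 1 was called lower (Bcl11b) and 1 higher (Pak6). Over all genes tested, 3.82% were at least 2-fold lower there and 4.7% at least 2-fold higher, while 0.0226% were called lower and 0.0452% higher. The difference between the 2 genotype effects was called in 22 genes (0.166% of those tested), 20 of them more negative in the ΔHD2 lines, and 16 of the 22 were among the 73. For the other 57 of the 73, the effect in ΔHD2 lines was not shown to differ from that in ΔHD1 lines. The count was 4 without ΔHD2/- line 2, 4 without line 3, 4 with both averaged and 467 without line 1. With the 9 untreated libraries alone, none was called, and 790 had an unadjusted p of at most 0.05.

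Pak6, 2210016F16Rik, Acer2 and Sorcs2 were among the 5 largest differences. Pak6 fell in ΔHD2/- and rose in ΔHD1/- (log2 fold changes -3.37 and 4.20, difference -7.57, adjusted p = 2.0e-04). Without cytokine it lay at 13.1 and 9.11 CPM in ΔHD2/fl and at 0.524, 0 and 0 CPM in ΔHD2/-. 2210016F16Rik had a difference of -4.64 (adjusted p = 0.00837), at 17.2 and 15.3 CPM against 0.393, 0.225 and 0.377 CPM in the ΔHD2 lines. Acer2, an alkaline ceramidase, had one of -4.27 (adjusted p = 0.0445), at 15.3 and 11.4 CPM against 0.655, 0.675 and 0.544 CPM. Sorcs2, a receptor of the sortilin family, had a difference of -3.90 (adjusted p = 0.00302) and lay at 39.7 and 22.9 CPM against 4.98, 4.05 and 4.27 CPM in the ΔHD2 lines. Fitted effects in ΔHD1 lines were 0.95, 1.14 and 1.38 for 2210016F16Rik, Acer2 and Sorcs2, none of which was called on its own.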

How the data were processed

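Total RNA of the cell lines was made into stranded mRNA libraries, and single reads were aligned by the authors to mm10 with STAR, keeping unique hits. Reads starting in exons of RefSeq genes were counted with QuasR. Whether strand was used in counting is not given in the sources used here. The values deposited by the authors are CPM, and every library sums to 1000000, so no further scaling is in them. Of 24454 Entrez identifiers, 24374 matched a RefSeq symbol and 80 did not. All values (100%) were whole multiples of 1 read within 0.01, so reads could be recovered. The edgeR and DESeq2 alternatives used them. No column was left unused (0).

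The 13270 genes that reached 1 CPM in 2 or more libraries were analysed with limma 3.58.1 in R 4.3.3 on log2(CPM + 1), which understates the change of low genes. All 27 libraries entered 1 fit of 12 group means (15 residual degrees of freedom), with trend and robust settings and no block. A call required p no higher than 0.05 after Benjamini-Hochberg adjustment, with a log2 fold change of 1 or more in size. On simulated reads with 200 genes changed 4-fold among 13068, limma and edgeR (4.0.16) each recovered 100%. The simulated lines were independent with 1 fixed spread, and no gene of low level was changed. The recovery therefore does not show how many changes would be found among the real lines. DESeq2 was version 1.42.0.

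Genes were named by rule: Bcl9 and Bcl9l, those called higher and the 20 called lower of largest change (line 1 on the same side), the 5 largest differences from ΔHD1, the called list members, the 3 list members of highest CPM where a comparison turns on them, and a set of Wnt, epithelial and cycle genes. Some genes that meet the rule are not reported here. Other genes were chosen after their values were seen. The comparison, the 26 gene lists and the tests were chosen with earlier results of these data known. Alternatives were another pseudocount (0.1), filters, scaling, fewer libraries, a replicate block, averaging of ΔHD2/- lines 2 and 3, cell line as a random effect, leaving out each line, other thresholds, edgeR and DESeq2. A fit over the 9 untreated libraries with lines 2 and 3 averaged was added after the data were seen, as was the 5 CPM filter for the difference from ΔHD1. The p-values of the main fit rest on the spread within the groups of all 27 libraries. That fit treated ΔHD2/- lines 2 and 3, and the libraries of 1 line under 3 treatments, as independent. Some lines shared a mouse. Coordinates are GRCm38 (mm10).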

Additional observations from a re-analysis of the deposited data

Results flagged for a closer look

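The genotype effect of the ΔHD2 lines differed from that of the ΔHD1 lines, by a test of the difference itself, in 22 genes. Among the 5 of largest size were Pak6 (log2 difference -7.57), 2210016F16Rik (-4.64), Acer2 (-4.27) and Sorcs2 (-3.90). In these 4 the fitted effect was negative in the ΔHD2 lines and positive in the ΔHD1 lines, where Pak6 alone of the 4 passed the test on its own (log2 fold change 4.20, adjusted p = 0.00521, limma). Within the ΔHD2 lines, the genotype effect changed with TGFβ in Cdh15 (change 4.37), Krt75 (2.93) and Krt32 (1.67). Without cytokine all 3 were lower in ΔHD2/-. With TGFβ, Krt75 lay between 0 and 0.0355 CPM in both genotypes and Krt32 was at 0 in all 5 libraries. Cdh15 then lay at 0.0378 and 0.071 CPM in ΔHD2/fl and at 1.63, 1.11 and 1.38 CPM in ΔHD2/- (adjusted p = 0.406).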

How the results depend on the processing

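Against 73 calls between ΔHD2/- and ΔHD2/fl, all with line 1 on the same side, the count was 44 with a filter of 5 CPM, 1 with the 9 untreated libraries, 0 with the 5 compared ones, 28 with lines 2 and 3 averaged, 8 with edgeR and 133 with DESeq2 (123 with line 1 on the same side). With p unadjusted (0.05) and a 1.5-fold limit it was 977 (828 with line 1 on the same side). With the 9 untreated libraries and lines 2 and 3 averaged, at the adjusted threshold, it was 0. Leaving out a line gave 26 to 749, for both counts, the highest without line 1 of ΔHD2/-. The replicate block gave 156 (153 with line 1 on the same side). Only 2 pairs of numbers exist, whose deviations correlated at 0.164 and 0.19, so pairing was not decided. Counts stayed within 1.5 times under the other alternatives.

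For the difference from ΔHD1, against 22 calls, the count was 6 with a filter of 5 CPM, 0 with the 9 untreated libraries (also with lines 2 and 3 averaged), 146 with the replicate block, 4 with lines 2 and 3 averaged and 38 with cell line as a random effect. Leaving out a line gave 4 to 467, again highest without line 1 of ΔHD2/-. Fewer samples and lower residual degrees of freedom enter the fits of 9 or 5 libraries, and for the other settings the cause was not tested.

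None of the 40 called genes named in the text changed direction under an alternative, and 287 of 663 gene values lost their call. Genes without a call reversed as follows. Cldn7 had log2 fold changes of 0.92 with edgeR and 0.91 with DESeq2. Ccnd1 had 0.06 with lines 2 and 3 averaged, with all or with the 9 untreated libraries. Leaving out a line gave log2 fold changes of -0.64 to 0.09 for Ccnd1, -0.14 to 0.49 for Bcl9 and -0.12 to 1.26 for Notum, and reversed Fn1 (-0.14) and Cdh2 (0.02). Depth limited the 44 genes called lower with at most 3 reads in both lines 2 and 3 (13 of them in all 3 lines). Fold changes of such genes depend on the pseudocount, as in Fat2 (-4.68, and -7.04 with 0.1) and Pak6 (-3.37 and -5.90).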

Other observations

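Besides Insig1, genes of cholesterol synthesis and uptake lay above ΔHD2/fl in most cases. This list of 27 genes was drawn up after the values were seen and has no test. Of 26 members tested, 17 lay above ΔHD2/fl in all 3 ΔHD2/- lines and none lay below, where 12.4% of all genes tested lay above, with a median log2 fold change of 0.50 (0.75 in line 1 and 0.43 in lines 2 and 3). Insig1 was the 1 called member. Sqle, squalene epoxidase, lay at 149 and 170 CPM against 320, 292 and 319 CPM (adjusted p = 0.523). Cyp51, the sterol demethylase, lay at 106 and 135 CPM against 279, 222 and 241 CPM (adjusted p = 0.377). The tested members outside these 17 overlapped ΔHD2/fl.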
